A study of Mus musculus with 3 samples.

Results

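The 9 genes described here encode proteins that mend broken DNA or signal its presence: Prkdc and Lig4 of classical end joining, Polq of alternative end joining, the nuclease subunits Mus81 and Ercc4, the chromatin enzymes Rnf168 and Kat5, and the checkpoint proteins Rad9a and Mcph1. They were taken by gene symbol from 38205 gene identifiers, by a choice made with earlier results of these data known. Each of the 9 symbols had 1 row with status OK in every library. The libraries were made from LSK cells, the blood stem and progenitor fraction without lineage markers and with Sca1 and c-Kit on its surface, sorted from C57Bl/6 fetal livers at E14.5. A homozygous library came from embryos with both copies of a DNMT3B7 transgene, a hemizygous library from embryos with a single copy, and a WT library from embryos with none. DNMT3B7 is a shortened variant of DNMT3B, an enzyme that methylates DNA. Each library held pooled cells of 4 to 5 embryos, and the promoter that drives the transgene is not given in the sources used here. With 1 library per genotype, no difference below has a replicate check, and each statement compares libraries.

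A double-strand break in DNA is sealed along competing routes. Classical end joining rejoins the ends with little trimming, alternative end joining aligns them at short matching stretches, and homologous recombination copies a sister chromatid. Structure-specific nucleases cut branched intermediates, while chromatin enzymes and checkpoint proteins mark the break and hold back the cell cycle. Blood stem and progenitor cells are known to depend on these routes, and classical end joining also completes the V(D)J rearrangement of lymphoid progenitors.

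Values are deposited FPKM (fragments per length of transcript and library depth) divided by 4245 in all 3 libraries, so that they stand on a common scale per length. They can be read for 1454 genes, which lie before fitted breaks on 10 chromosomes or on the mitochondrial genome. Dnmt3b (values of 1.31 in the homozygous, 0.42 in the hemizygous and 0 in the WT library), Ly6a, which encodes Sca1 (listed at 0 in all 3), and Kit (0.41, 0.73 and 0) lie outside these segments. Neither the genotype nor the gate could therefore be checked on them, and none of the 11 markers listed for the gate could be read. All 9 genes lie inside, against 4 of 179 other repair and checkpoint genes listed, so the 9 do not stand for such genes at large. Prkdc, Polq, Ercc4 and Rnf168 are on chromosome 16, Mus81, Rad9a and Kat5 on chromosome 19, and Lig4 and Mcph1 on chromosome 8. Past the breaks, constitutive genes such as Eef1a1 on chromosome 9 were listed at 0. Whether the alignments and the gene models behind the files used the same genome build was not tested, so it is not known how far reads were given to the right gene. Mcph1, to which this bears most, was 2 fitted genes from the break of its chromosome, and the others were at least 43 from theirs. Depth read from the steps of the low values came to about 2320000 fragments in the homozygous, 3020000 in the hemizygous and 3030000 in the WT library when lengths were median transcript lengths. With longest transcripts it came to 4820000, 5950000 and 5690000, so these totals are approximate. Intervals below are 95% counting intervals from such estimated fragments. They cover counting error alone, without differences between embryos or library making.

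In each of the 3 libraries, Rad9a was the highest of the 9 genes and Prkdc the lowest. In the WT library they spanned 34.8-fold, from 377 to 10.8, and 7 of the 9 were above 57.1, the median of the 957 nuclear genes compared that reached a value of 1. Rad9a lay above 88.2% of those genes and Prkdc above 27.3%. Exons of Rad9a and Kat5 overlap genes with far higher values on the opposite strand, given below. What reads of the shared stretches add to either level was not tested. The median value of the 9 was 103 in the homozygous, 92.5 in the hemizygous and 87.4 in the WT library. Their summed value was 999.9 in the homozygous, 1020 in the hemizygous and 1040 in the WT library. The order of most neighbours held beyond counting error: of the 8 steps in the WT library, the step from Lig4 to Prkdc (1.11-fold, interval 0.93 to 1.33) did not. In the homozygous library the steps from Mcph1 to Mus81 (1.00-fold, 0.86 to 1.17) and from Ercc4 to Polq (1.12-fold, 0.98 to 1.27) did not either. In the hemizygous library the step from Rnf168 to Mus81 (1.09-fold, 0.96 to 1.24) did not, and the step from Lig4 to Prkdc did not in any library.

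**Figure D1:**
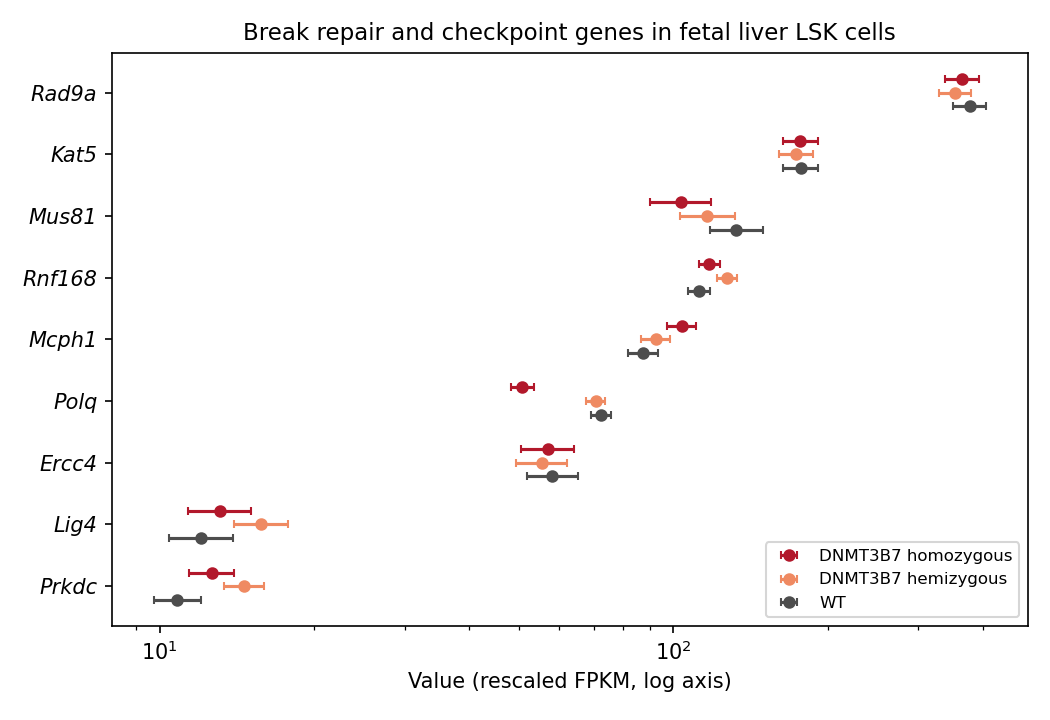
Value (rescaled FPKM, log axis) of each gene in the homozygous, hemizygous and WT libraries, 1 point per library, with 95% counting intervals. Rad9a lies highest at 353 to 377 and Prkdc and Lig4 lowest at 10.8 to 15.8; the homozygous point of Polq, at 50.9, lies left of its hemizygous and WT points.

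No gene of the 9 passed 2-fold in any comparison, nor 1.5-fold. Between the homozygous and WT libraries 4.4% of 955 genes measured passed 2-fold, and 9.27% of the 798 that reached 5 in 1 of the libraries passed 1.5-fold. Between the hemizygous and WT libraries the shares were 2.73% of 954 and 4.73% of 803 genes, and between the homozygous and hemizygous libraries 4.57% of 962 and 7.23% of 802. The median log2 ratio of the 9 genes (of value + 1, which understates differences at low values) was -0.0024 for homozygous versus WT, against -0.04 for all genes measured. For hemizygous versus WT it was -0.03 against 0.02, and for homozygous versus hemizygous -0.11 against -0.06. The largest difference was that of Polq, at -0.50 on the log2 scale between the homozygous and WT libraries.

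The counting interval of the log2 ratio lay on 1 side of 0 for 4 of the 9 genes in homozygous versus WT (Polq and Mus81 lower, Prkdc and Mcph1 higher). It did so for 3 in hemizygous versus WT (Prkdc, Lig4 and Rnf168 higher), and for 5 in homozygous versus hemizygous (Polq, Prkdc, Lig4 and Rnf168 lower, Mcph1 higher). Among all genes that reached a value of 5 the same held for 38.0% in homozygous versus WT, 37.0% in hemizygous versus WT and 33.2% in homozygous versus hemizygous. Taking the longest transcript of each gene, which gives more fragments, the 9 genes had 4, 5 and 6 such intervals, against 53.1%, 51.8% and 48.6% of genes. With shares this high among all genes, the counts are read as nothing particular to the 9. Comparisons of transgenic libraries with WT share that library, and homozygous versus hemizygous shares the transgenic ones.

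Scaling sets the sign of several small ratios. Giving each library the same sum of values, mitochondrial mRNAs included, raised the median log2 ratio of all genes by 0.40 in homozygous versus WT, 0.14 in hemizygous versus WT and 0.27 in homozygous versus hemizygous. Mitochondrial mRNAs made up 64.8% of the summed value of the genes compared in the homozygous, 72.0% in the hemizygous and 74.9% in the WT library. Ratios below are therefore also given relative to the median of the genes that reached a value of 5 in either library.

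**Figure D2:**
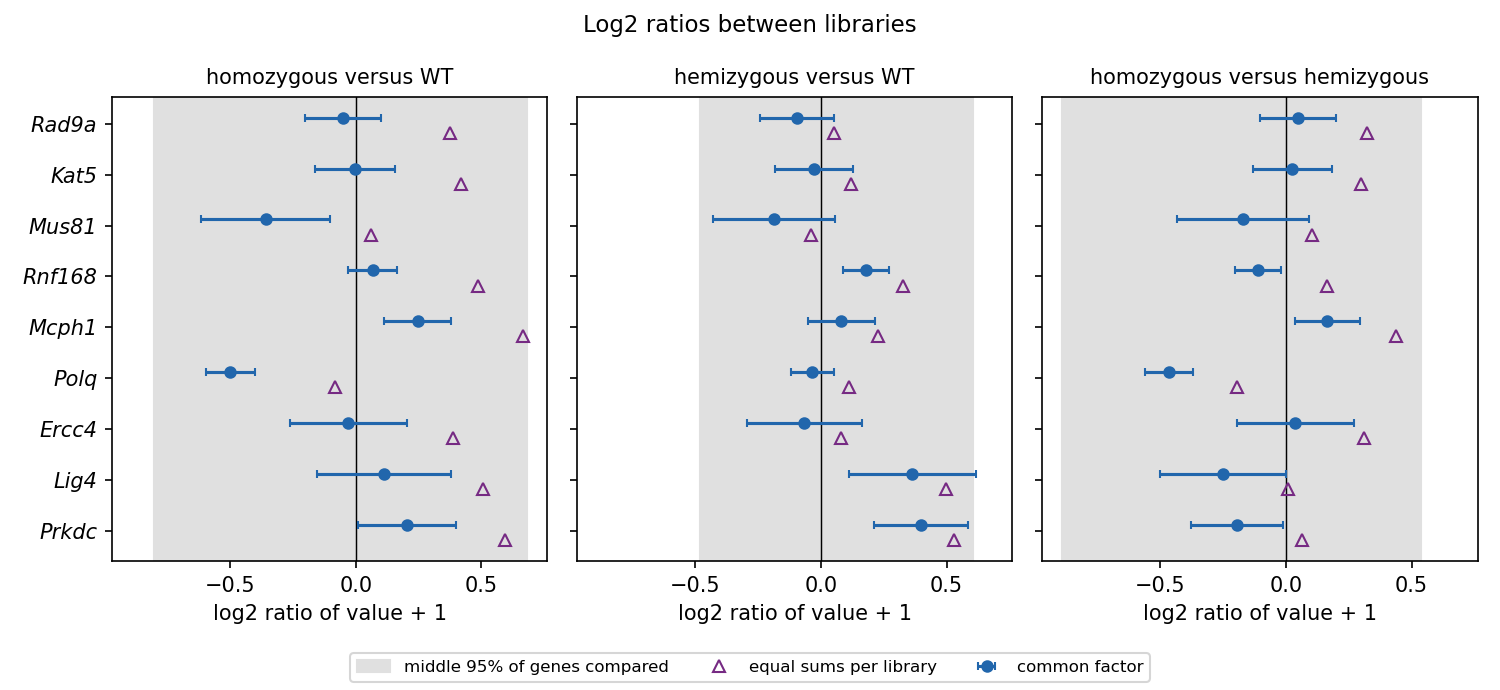
Log2 ratio of value + 1 for each gene (circles, with 95% counting intervals) in homozygous versus WT, hemizygous versus WT and homozygous versus hemizygous libraries; triangles show the ratio with equal sums per library, and the grey band spans the middle 95% of genes that reached 5. All circles lie inside the band, and Polq lies farthest to the left in both panels that involve the homozygous library.

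The catalytic kinase subunit and the ligase of classical end joining had the lowest values of the 9. Prkdc (ENSMUSG00000022672), which encodes DNA-PKcs, the kinase that binds broken ends with the Ku proteins, had a value of 12.6 in the homozygous, 14.6 in the hemizygous and 10.8 in the WT library. Lig4 (ENSMUSG00000049717), the ligase that seals the joined ends, had 13.1 in the homozygous, 15.8 in the hemizygous and 12.0 in the WT library. The same library was highest for both genes, the hemizygous one, and the WT library was lowest for both. Their mutual ratio kept close to 1: Lig4 stood at 1.04 times Prkdc in the homozygous (interval 0.87 to 1.23), 1.08 in the hemizygous (0.93 to 1.26) and 1.11 in the WT library (0.93 to 1.33). Prkdc rested on an estimated 371, 474 and 334 fragments in these libraries and Lig4 on 194, 259 and 188.

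For hemizygous versus WT the log2 ratio was 0.40 ± 0.10 (counting SE) for Prkdc, with an interval of 0.21 to 0.58, and 0.36 ± 0.13 for Lig4, with 0.11 to 0.62. Relative to the median gene these were 0.38 and 0.35, and 92.7% and 90.8% of the 803 genes that reached 5 had lower ratios. For homozygous versus WT they were smaller, 0.20 for Prkdc (0.01 to 0.40) and 0.11 for Lig4 (-0.16 to 0.38). For homozygous versus hemizygous they were -0.19 (-0.38 to -0.01) and -0.25 (-0.50 to -0.00038), and with equal sums both turned to the other side of 0, at 0.06 and 0.01. The start of Prkdc lies 466 bases from that of Mcm4 on the opposite strand in GENCODE release M21. Mcm4, a subunit of the replicative helicase, had values of 390 in the homozygous, 402 in the hemizygous and 408 in the WT library, 30.9, 27.6 and 37.7 times those of Prkdc.

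Polq (ENSMUSG00000034206) encodes DNA polymerase theta, which anneals and extends short matching stretches in alternative end joining. Its value was 50.9 in the homozygous, 70.6 in the hemizygous and 72.3 in the WT library. The homozygous library stood apart, while the hemizygous and WT libraries were close together. For homozygous versus WT the log2 ratio was -0.50 ± 0.05 (interval -0.60 to -0.40), a plain ratio of 0.70, from an estimated 1385 fragments in the homozygous and 2065 in the WT library. For homozygous versus hemizygous it was -0.47 ± 0.05 (-0.56 to -0.37), and for hemizygous versus WT -0.03 (-0.12 to 0.05). Relative to the median gene the homozygous versus WT ratio was -0.45, and 6.89% of the 798 genes that reached 5 had lower ones. With equal sums per library it shrank to -0.08, and hemizygous versus WT turned to 0.11.

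**Figure D3:**
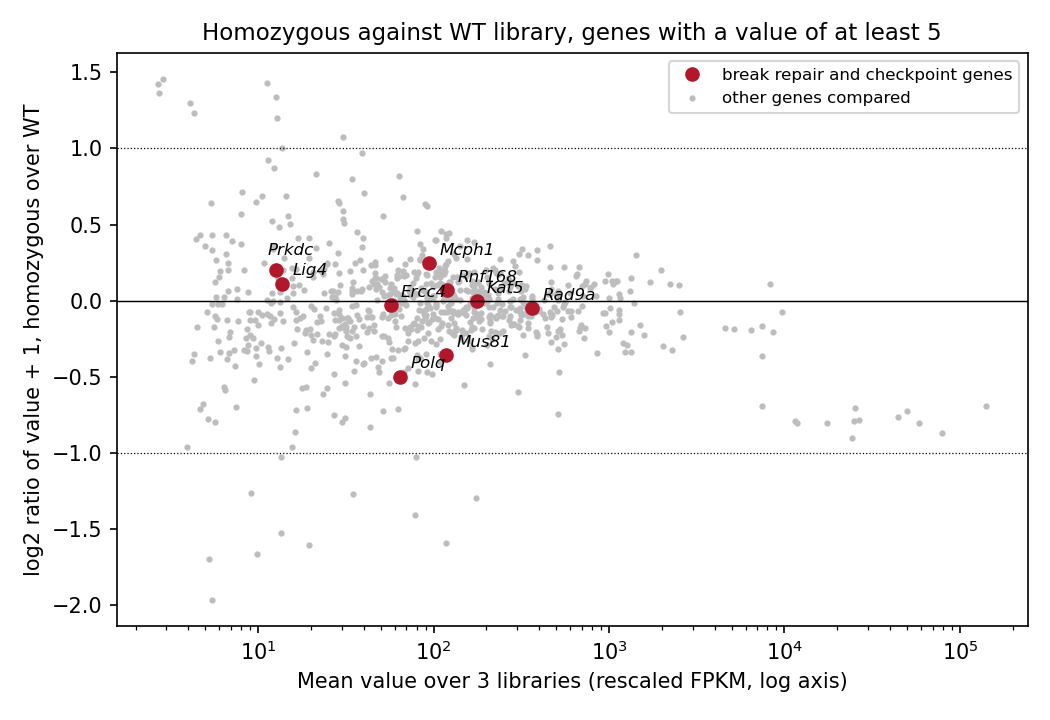
Log2 ratio of value + 1 of the homozygous over the WT library against the mean value over the 3 libraries (rescaled FPKM, log axis), with the 9 genes in red and the other genes compared that reached a value of 5 in either library in grey. Dotted lines mark 2-fold; Polq at -0.50 and Mus81 at -0.36 are the lowest of the red points and Mcph1 at 0.25 the highest.

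A ratio between genes of the same library does not depend on the scaling of libraries; the pairs given here were chosen after the values had been seen. Polq stood at 3.88 times Lig4 in the homozygous (interval 3.34 to 4.51), 4.47 in the hemizygous (3.93 to 5.09) and 6.00 in the WT library (5.17 to 6.97). Against Prkdc it stood at 4.03 times in the homozygous (3.59 to 4.52), 4.84 in the hemizygous (4.38 to 5.35) and 6.67 in the WT library (5.94 to 7.49). In both pairs the interval of the WT library lies above those of both transgenic libraries. The homozygous and hemizygous intervals overlap in both pairs. Both pairs share Polq. For hemizygous versus WT the log2 ratio of Polq was -0.03, against 0.40 for Prkdc and 0.36 for Lig4, so that gap follows the denominators. How many pairs among all genes differ in this way was not counted, so nothing particular to these pairs is read from it.

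**Figure D4:**
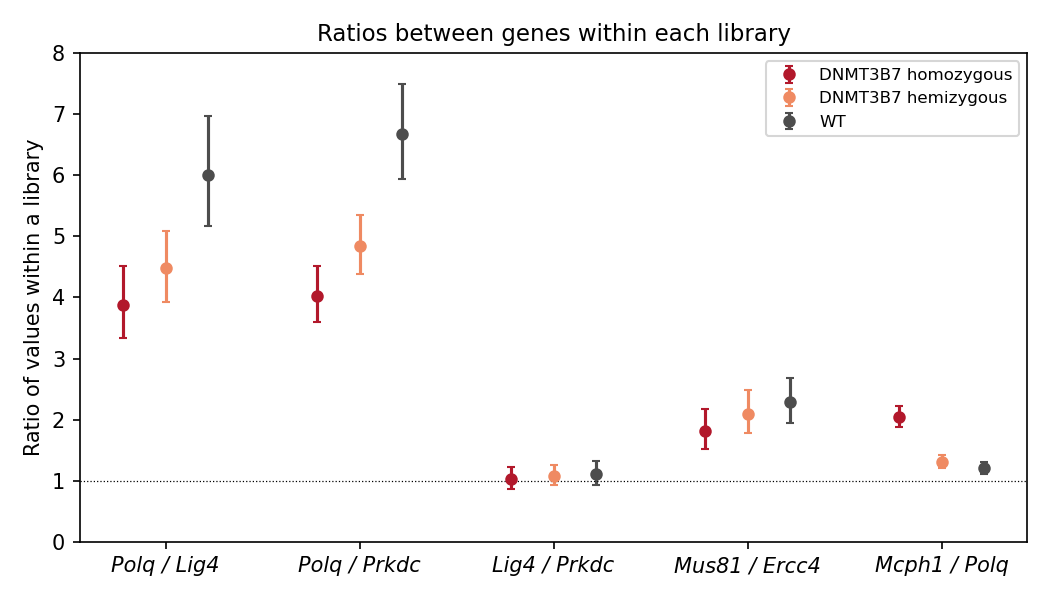
Ratio between the values of named gene pairs within the homozygous, hemizygous and WT libraries, with 95% counting intervals; the axis starts at 0 and the dotted line marks equal values. The ratio of Polq to Lig4 is 3.88, 4.47 and 6.00 in these libraries, and that of Lig4 to Prkdc lies between 1.04 and 1.11.

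Of the 639 other protein-coding genes that reached 5 in every library, those nearest to Polq in the pair of log2 ratios to WT were Gm14378, Ankrd13d and Zdhhc14. Gm14378 had 24.1 in the homozygous, 34.6 in the hemizygous and 35.4 in the WT library. Ankrd13d had 77.7, 109 and 109, and Zdhhc14 14.0, 20.8 and 21.3, in the same order of libraries. Likeness was the Euclidean distance in this pair of log2 ratios, without regard to level, 0.04 for Gm14378 and Ankrd13d and 0.07 for Zdhhc14.

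Markers of other cells also differed between the libraries. Of 16 lymphoid markers 3 could be read, the surrogate light chain genes Igll1, Vpreb1 and Vpreb2, with a summed value of 192 in the homozygous, 400.4 in the hemizygous and 517 in the WT library. Of 12 vessel wall and stroma markers 4 could be read, with a sum of 117, 83.1 and 59.3, and of 12 erythroid markers 4, with 3285, 4012 and 3987. The erythroid sum was mostly Car2 and Tfrc, whose log2 ratios for homozygous versus WT were -0.30 and -0.34, or 0.12 and 0.09 with equal sums per library, while that of Car1 was 0.24. The megakaryocyte list (3 of 9 read) summed to 38.7 in the homozygous, 24.3 in the hemizygous and 25.8 in the WT library. Its difference came from Gp5 (30.1 in the homozygous and 16.5 in the WT library), with Gp1bb at 4.76 and 5.50 and Mylk at 3.80 and 3.79. The myeloid list (2 of 13) summed to 35.8 in the homozygous, 39.7 in the hemizygous and 45.6 in the WT library, and the hepatocyte list (3 of 11, with Hrg at 0) to 4.81, 3.82 and 4.27. Past 2-fold, as 4.4% of all genes were in homozygous versus WT, were all 3 lymphoid genes, lower, and Efemp2 of the vessel wall list, higher. With equal sums per library Vpreb1 alone of the lymphoid genes stayed past 2-fold, at -1.18, with Igll1 at -0.87 and Vpreb2 at -0.99. The same scaling took Col4a1 (1.21) and Col4a2 (1.38) of the vessel wall list and Gp5 (1.24) past 2-fold, higher, with Efemp2 at 1.81. The share of all genes past 2-fold with equal sums was not counted. On the common scale, Efemp2 passed in hemizygous versus WT (2.73% of all genes). In homozygous versus hemizygous (4.57%) Vpreb1 and Vpreb2 did, both lower. The lymphoid markers Rag1, Cd3e and Cd3g and the stroma markers Cdh5, Col1a1 and Col3a1 were listed at 0 in every library but lie outside the segments that can be read. Of 28 S and G2/M phase genes 4 could be read: Mcm4, given above, Rfc4 (216 in the homozygous, 185 in the hemizygous and 222 in the WT library), Donson (72.3, 80.5 and 94.3) and Cdc45 (25.2, 19.2 and 19.6). Mki67, Cdk1 and Aurkb were listed at 0 and lie outside. The part of any of these in the values of Polq was not tested, and in bulk RNA fewer cells of a type cannot be told apart from less RNA per cell.

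The nuclease subunits differed from each other. Mus81 (ENSMUSG00000024906), the catalytic subunit of an endonuclease that cuts branched recombination and replication structures, had a value of 103 in the homozygous, 117 in the hemizygous and 133 in the WT library. The hemizygous library lay between the homozygous and WT ones. The log2 ratio was -0.36 ± 0.13 (interval -0.62 to -0.10) for homozygous versus WT, -0.19 ± 0.12 (-0.43 to 0.06) for hemizygous versus WT and -0.17 ± 0.13 (-0.43 to 0.09) for homozygous versus hemizygous. Relative to the median gene the first was -0.31, with lower ratios in 11.5% of genes, and with equal sums per library it turned to 0.06. Ercc4 (ENSMUSG00000022545), which encodes XPF, the nuclease that with Ercc1 acts in crosslink and nucleotide excision repair, had 57.0 in the homozygous, 55.5 in the hemizygous and 58.2 in the WT library. Its log2 ratio was -0.03 (-0.26 to 0.20) for homozygous versus WT and -0.07 (-0.30 to 0.16) for hemizygous versus WT. On the common scale the libraries could therefore not be told apart beyond counting error. With equal sums per library, which raised the median of all genes, these ratios were 0.39 and 0.08, and that for homozygous versus hemizygous was 0.31. Mus81 stood at 1.81 times Ercc4 in the homozygous (1.51 to 2.17), 2.10 in the hemizygous (1.78 to 2.48) and 2.28 in the WT library (1.94 to 2.69), with overlapping intervals.

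The depth behind Mus81 depends on the transcript length taken, since its 12 annotated transcripts have a median length of 722.5 bases and a longest of 2070. The median gave 207 fragments in the homozygous and 279 in the WT library, and the longest gave 742 and 1000.1. With the longest, the interval for hemizygous versus WT narrowed to -0.31 to -0.06 and that for homozygous versus hemizygous to -0.31 to -0.03. Exons of Mus81 share 173 bases, 4.85% of its exonic sequence, with the matrix gene Efemp2 on the opposite strand. Efemp2 had values of 15.5 in the homozygous, 13.1 in the hemizygous and 5.10 in the WT library, against the direction of Mus81. As the strand setting is not given in the sources used here, reads of the shared stretch cannot be assigned to either gene.

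Upstream sequence is shown for Polq and Mus81, the genes of the 9 with the lowest ratios for homozygous versus WT. DNMT3B, of which the transgene encodes a shortened variant, methylates cytosine in CpG dinucleotides. Whether the variant does so was not tested. Capitals mark each CpG in the 250 bases before the start, read along the gene (RefSeq, GRCm38.p6; Polq at chr16:37011536-37011785, plus strand, Mus81 at chr19:5488380-5488629, minus strand).
Polq: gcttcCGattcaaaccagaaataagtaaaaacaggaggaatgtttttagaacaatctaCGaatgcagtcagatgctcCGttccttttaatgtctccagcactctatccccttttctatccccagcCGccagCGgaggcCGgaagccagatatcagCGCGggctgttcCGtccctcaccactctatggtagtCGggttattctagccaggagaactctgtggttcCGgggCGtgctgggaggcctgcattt
Mus81: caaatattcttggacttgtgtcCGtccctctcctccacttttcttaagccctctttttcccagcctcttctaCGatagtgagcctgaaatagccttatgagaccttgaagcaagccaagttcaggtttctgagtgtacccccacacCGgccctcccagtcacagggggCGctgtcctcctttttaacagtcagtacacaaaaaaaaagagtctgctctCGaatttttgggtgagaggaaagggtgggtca
Polq has 12 CpG in this window and Mus81 has 5, against a median of 6 over 32851 such windows. Methylation was not measured.

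Of the 9 genes, 6 had such an entry, with 8 windows in all. The windows of Lig4 held 27 and 28 CpG, those of Kat5 15 and 24, that of Ercc4 19 and that of Rnf168 9, so Mus81 was the only 1 of the 6 below the median. The letters CCGGAAG, searched on both strands as the core bound by ETS factors, were found in 4 of the 8 windows and in 6.91% of all windows. The 4 were both windows of Lig4 and those of Rnf168 and Polq. These letters hold a CpG, and only the window of Mus81 was below the median CpG count, so the 2 shares are not compared. In Polq that CpG is marked above. The letters GGGCGG were found in Lig4, Rnf168 and Kat5 and in 32.7% of all windows, and CCAAT in Ercc4 and Kat5 and in 33.8%. A match describes the letters and not a bound site.

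The chromatin enzymes had values well above the median gene in every library. Rnf168 (ENSMUSG00000014074), the ubiquitin ligase that marks histones around a break, had 118 in the homozygous, 127 in the hemizygous and 112 in the WT library. The hemizygous library was the highest, with a log2 ratio of 0.18 ± 0.05 to WT (interval 0.09 to 0.27), from an estimated 2016 fragments in the hemizygous and 1687 in the WT library. It was 0.07 (-0.03 to 0.16) for homozygous versus WT and -0.11 (-0.20 to -0.02) for homozygous versus hemizygous, and the last turned to 0.16 with equal sums. Kat5 (ENSMUSG00000024926), the acetyltransferase that modifies histones and the ATM kinase at breaks, had 177 in the homozygous, 174 in the hemizygous and 177 in the WT library. On the common scale its 3 values lay within 1.02-fold, the narrowest range of the 9 genes. Its intervals of -0.16 to 0.16 (homozygous versus WT) and -0.18 to 0.13 (hemizygous versus WT) span differences that these depths could not show. With equal sums per library its log2 ratio was 0.42 for homozygous versus WT, 0.12 for hemizygous versus WT and 0.30 for homozygous versus hemizygous.

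Of the exonic bases of Kat5, 12.1% overlap Rnaseh2c on the opposite strand, a subunit of an RNase that removes RNA from DNA. Rnaseh2c had values of 1550 in the homozygous, 1418 in the hemizygous and 1810 in the WT library, far above those of Kat5. Of the 50-base stretches of Kat5 transcripts, 9.83% also occur in another gene on either strand, chiefly this one. Reads of the shared stretch cannot be assigned to either gene without the strand setting, and their part in the values of Kat5 was not tested. Rnf168 stood at 0.67 times Kat5 in the homozygous (interval 0.61 to 0.73), 0.73 in the hemizygous (0.67 to 0.80) and 0.63 in the WT library (0.58 to 0.69).

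Of the checkpoint genes, Rad9a had values within 1.07-fold over the 3 libraries on the common scale, and Mcph1 was higher in the homozygous library. Rad9a (ENSMUSG00000024824), a subunit of the clamp that is loaded at damaged DNA and activates the ATR kinase, had 365 in the homozygous, 353 in the hemizygous and 377 in the WT library. Its log2 ratio was -0.05 (-0.20 to 0.10) for homozygous versus WT and -0.10 (-0.24 to 0.05) for hemizygous versus WT, where the longest transcript gave -0.17 to -0.02. With equal sums per library these ratios were 0.37 and 0.05, and that for homozygous versus hemizygous was 0.32. Of the exonic bases of Rad9a 9.53% overlap Ppp1ca, a phosphatase gene on the opposite strand with values of 2571 in the homozygous, 2571 in the hemizygous and 2395 in the WT library. Without the strand setting, reads of the shared stretch cannot be assigned to either gene. Their part in the values of Rad9a was not tested. Mcph1 (ENSMUSG00000039842), which encodes microcephalin, a protein of the damage checkpoint that also restrains entry into mitosis, had 104 in the homozygous, 92.5 in the hemizygous and 87.4 in the WT library.

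On the common scale, Mcph1 was the only gene of the 9 with its highest value in the homozygous library. With equal nuclear sums Kat5 and Ercc4 were highest there too, and with equal sums of all genes every member but Polq was. On the common scale the log2 ratio of Mcph1 was 0.25 ± 0.07 (0.11 to 0.38) for homozygous versus WT. It was 0.08 ± 0.07 (-0.05 to 0.22) for hemizygous versus WT and 0.16 ± 0.07 (0.03 to 0.29) for homozygous versus hemizygous. Relative to the median gene the first was 0.29, and 88.2% of genes had lower ratios. Over the scalings tried, the homozygous versus WT ratio ran from 0.25 to 0.67. Each other scaling raised the median ratio of this comparison, so none could have brought the ratio of Mcph1 below 0. Set against Polq, Mcph1 stood at 2.04 times in the homozygous (1.88 to 2.22), 1.31 in the hemizygous (1.21 to 1.42) and 1.21 in the WT library (1.11 to 1.31). Of the 9 genes Mcph1 had the highest and Polq the lowest homozygous versus WT ratio, so the gap between those libraries follows from the choice of pair.

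The wider lists of repair and checkpoint genes could be read for few members. Of 179 other symbols 4 lay in the segments, and none passed 2-fold in any comparison in either direction. Of all genes measured 4.4% did in homozygous versus WT, 2.73% in hemizygous versus WT and 4.57% in homozygous versus hemizygous. With shares this low and 4 genes, nothing is read from that count. Slx4, the scaffold that holds Mus81 and Ercc4 nucleases together, had 164 in the homozygous, 180.1 in the hemizygous and 157 in the WT library. Gtf2h5, a subunit of the repair and transcription factor TFIIH, had 469.9, 425 and 498. Epc1, a subunit of the acetyltransferase complex of Kat5, had 119.7, 131 and 126, and Usp16, a histone deubiquitinase, had 112, 149 and 131. The largest ratio among these 4 was that of Usp16, at -0.41 ± 0.08 on the log2 scale (counting SE) between the homozygous and hemizygous libraries. No member of the homologous recombination, base excision and mismatch repair or p53 target lists could be read.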

How the data were processed

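RNA sequencing of 3 libraries of sorted fetal liver LSK cells was used, 1 per genotype, grouped by the genotype label. The authors deposited FPKM per gene with a status column, per the file headers. Per the submitters' processing notes, the tools were TopHat2, Bowtie2 and Cufflinks and the build mm9. Versions, annotation and strand setting: not given in the sources used here. Deposited sums over genes other than small RNA genes were 3481240000 to 4671640000 per library, above what the unit allows, so all values were divided by 4245.

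Of 38205 identifiers 36463 matched GENCODE mouse release M21 (GRCm38), used for types, lengths and gene order. Many constitutive genes, Eef1a1 among them, were listed at 0. On each chromosome a break was fitted to how often protein-coding genes averaged 200000 deposited FPKM or more, with large families left out. It was kept at a log likelihood gain of 5 and a share before it of at least 20%. On chromosome 16 the segment held 548 of 581 fitted genes, on 19 141 of 615 and on 8 102 of 893.

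For genes with 1 transcript of 1000 to 10000 bases, low values times length less 200 bases were set against whole multiples of 1 unit. They came within 0.05 for 71.7% (homozygous), 69.4% (hemizygous) and 71.1% (WT) of values. The unit and the 200 bases were those that made this share largest. Chance gives 10% for a unit fixed beforehand, and its share for a fitted unit was not computed. The unit was read as 1 fragment, and median transcript lengths gave counting errors. Genes counted as measured with status OK in both libraries compared and a value of 1 or more in 1 of them. The pseudocount was 1 and the size rule 2-fold. No test between genotypes is possible. All 9 genes are named, with readable genes of the lists that reached 5, the 3 genes most like the one with the widest range, and overlapping neighbours. The members and lists were chosen with earlier results of these data known, and the break rule was settled while looking at values. The ratio step was tested on simulated data. Python 3.11.15, pandas 2.3.3 and matplotlib 3.10.9 were used.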

Additional observations from a re-analysis of the deposited data

How the results depend on the processing

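No paired analysis was possible because each genotype has 1 library, and for the same reason no library could be left out. The count of members past 2-fold was 0 in all 3 comparisons under every scaling, pseudocount (0.1 and 5), minimum value and the 1.5-fold rule, as was that of the wider lists under the scalings, pseudocounts and no minimum. With equal sums of all genes the median log2 ratio of the 9 genes was 0.42 for homozygous versus WT (main -0.0024) and 0.16 for homozygous versus hemizygous (main -0.11); the sum includes the mitochondrial mRNAs. It moved 21 of the 27 ratios of single members by more than their counting interval. Median-ratio scaling, equal nuclear sums, either pseudocount and summed rows moved no member's ratio beyond its counting interval. Past 2-fold in the background were 42 genes for homozygous versus WT, 26 for hemizygous versus WT and 44 for homozygous versus hemizygous. On chromosome 16 alone, which holds 826 of the 1454 genes compared, these were 28 for homozygous versus WT, 14 for hemizygous versus WT and 26 for homozygous versus hemizygous. Over all genes other than small RNA genes they were 923, 1067 and 1093, with genes outside the segments included. Shares of the genes measured are not given for these settings, so the counts do not show whether the share rose or fell. The longest transcript gave more fragments for each of the 9 genes, so the intervals printed are the wider ones. Depth limits Lig4 and Mus81 most, with 188 to 259 and 207 to 279 fragments per library.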
